A study of Solanum lycopersicum with 29 samples.

Results

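The LTMH response of anthers of the low-salicylic acid tomato line 35S:nahG was described over all expressed genes, from 7 of the 29 anther RNA libraries of the study. The bacterial gene nahG encodes a salicylate hydroxylase, which removes salicylic acid (SA), and in this line it is driven by the constitutive 35S promoter, in a transgene introgressed into the dwarf cultivar Micro-Tom. The control temperature (CT) group held 4 libraries, replicates 1 to 4, from plants grown at day and night temperatures of 25 and 19 °C with 50% relative humidity. The long-term mild heat (LTMH) group held 3 libraries, replicates 2 to 4, from plants kept for 8 days at 34 and 28 °C with 68% relative humidity. Each library came from a pool of 6 anthers with microspores at the polarized stage, a late single-cell stage before pollen mitosis. The 2 groups share line, sampling time and the stage aimed for, and differ in temperature and in the humidity that was set to go with it. Stage was assigned by size and by staining of the pollen, and whether the tapetum had developed equally far in both groups was not tested. WT, the ethylene-insensitive line Never ripe and the strigolactone-deficient antisense line 35S:asCCD7 were sampled in the same manner and serve here only to show where 35S:nahG differed. The bacterial transgene is not a tomato gene, so the counts hold no check of it.

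Pollen grows inside the anther, where the tapetum, the innermost wall layer, feeds the microspores and makes the precursors of sporopollenin, the polymer of the outer pollen wall (exine). The tapetum is laid down under a chain of regulators that runs from DYT1 and TDF1 through AMS to MYB103 and MS1 in Arabidopsis, and it degenerates once the wall has been built. Tapetum function, sugar supply and protein folding are the steps at which heat is known to harm developing pollen. SA is a stress hormone whose action crosses that of jasmonate, and jasmonate in turn is required for late anther development.

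The libraries held 32273189 to 35478012 counted reads. Of the 35092 genes counted 26508 had a read in the 7 libraries, and 21098 passed the filter on low counts and were tested. Counts are given scaled to library size (CPM), and a gene was called (a DEG) at an adjusted p under 0.05 in edgeR's quasi-likelihood test together with a fold change of at least 1.5. Temperature separated the libraries on the first principal component, which held 80.7% of the variance, with the CT libraries at −73 to −65 and the LTMH libraries at 86.9 to 98.7. The second component, with 6.47%, set CT replicate 2 (−49.6) apart from the other CT libraries (3.81 to 29.1). The p-values measure the spread between these libraries, and in bulk anthers fewer cells of a type and less RNA per cell cannot be told apart.

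In LTMH 3059 genes were higher expressed and 2778 were lower, which is 14.5% and 13.2% of the genes tested. The median log2 fold change was 1.20 among the higher and −1.22 among the lower genes, beside 0.005 over all tested genes. Changes of at least 16-fold were seen in 247 higher and 269 lower genes, and changes of at least 64-fold in 77 and 118, where fitted values of genes near 0 reads depend on the prior count. In 5643 of the 5837 DEGs (96.7%) the CT and LTMH libraries did not overlap, against 55.6% of all tested genes. Without CT replicate 2 the counts were 3108 higher and 2769 lower. The genes called lower took 26.3% of the CT reads and 6.91% of the LTMH reads, while the genes called higher went from 7.43% to 22.3%.

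**Figure D1:**
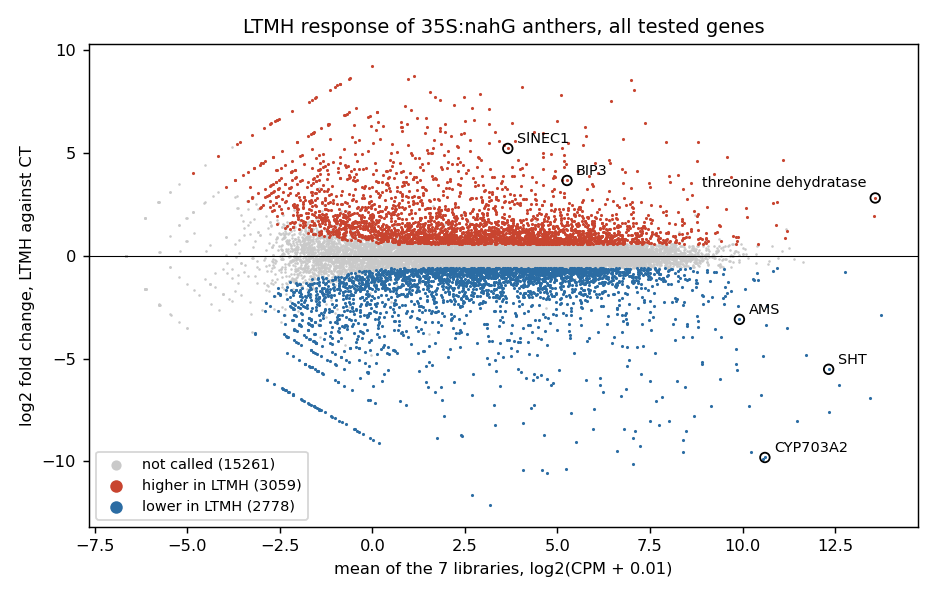
Every tested gene is drawn by its mean over the 7 libraries (horizontal axis, log2 CPM) and its log2 fold change between LTMH and CT (vertical axis), with 3059 higher genes in red, 2778 lower genes in blue and the others in grey. The tapetal genes SHT, CYP703A2 and AMS lie far below the line at 0, and threonine dehydratase, SlNEC1 and BIP3 lie above it.

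The most abundant transcripts of the CT anther were among those that fell. Per gene length, Solyc01g009590, a gene without a name in the sources used here, ranked first in CT with 35880 FPKM and stood at 293.6 FPKM in LTMH, at rank 263. Its 4 CT libraries had 20230, 15360, 21450 and 20610 CPM and its LTMH libraries 174, 169.9 and 165 CPM (log2 fold change −6.93 ± 0.16 (SE), adjusted p = 1.9e-08). SHT, which encodes the tapetal spermidine hydroxycinnamoyl transferase that makes the polyamine conjugates of the pollen coat, dropped from rank 6 to rank 692. The gene of an ASPARTIC PROTEASE IN GUARD CELL 1-like protein (Solyc06g069220) dropped from rank 8 to rank 3748, from 8718, 6518, 11140 and 9711 CPM in CT to 38.2, 61.2 and 50.2 CPM in LTMH (log2 fold change −7.58 ± 0.29 (SE), adjusted p = 1.6e-07). All 4 CT libraries of these genes lay far above all 3 LTMH libraries.

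The top ranks of the LTMH anther were taken by other transcripts. Solyc02g078370, also unnamed, rose from rank 9 to rank 1, with 4393, 9293, 2389 and 4898 CPM in CT and 18450, 22310 and 22030 CPM in LTMH (log2 fold change 1.92 ± 0.35 (SE), adjusted p = 0.00164). CT replicate 2 was the highest of its CT libraries, and the change was 2.32 without it. Threonine dehydratase (Solyc09g008670, biosynthetic, chloroplastic-like), an enzyme of isoleucine synthesis of which tomato has a jasmonate-inducible defence form, rose from rank 23 to rank 2, from 1583 to 11110 FPKM. Its CT libraries had 3746, 3429, 2864 and 3017 CPM and its LTMH libraries 22110, 23130 and 27730 CPM (log2 fold change 2.81 ± 0.12 (SE), adjusted p = 2.9e-07). The unnamed Solyc07g007250 went from rank 239 to rank 3, with 143 to 234 CPM in CT and 4233 to 5785 CPM in LTMH (log2 fold change 4.64). The groups did not overlap in any of these 3 genes.

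Among regulators of the tapetum, none of 11 tested genes rose and 8 fell, and the median was −1.93 (log2). Of all tested genes 14.5% rose and 13.2% fell. TDF1 (Solyc03g059200), a MYB factor early in the chain, had 1.08, 1.68, 0.646 and 0.59 CPM in CT and 0, 0 and 0.0588 CPM in LTMH. Its LTMH value rests on 1 library with reads, so the fall was called (adjusted p = 0.000425) but no fold is given. AMS (Solyc08g062780), the bHLH factor below it, had 1557, 1423, 1499 and 1705 CPM in CT and 136, 251 and 191 CPM in LTMH (log2 fold change −3.09 ± 0.21 (SE), adjusted p = 3.3e-06). MYB103 (Solyc10g005760), which acts after AMS in callose dissolution and exine formation, had 4.62, 8.6, 5.73 and 6.49 CPM in CT against 0, 0.029 and 0.118 CPM in LTMH (log2 fold change −7.02 ± 0.49 (SE), adjusted p = 4.1e-06). The PHD-finger gene MS1 (Solyc04g008420), the last regulator of the chain, had 195, 223, 234 and 262 CPM in CT and 0.254, 0.754 and 0.559 CPM in LTMH (log2 fold change −8.86 ± 0.25 (SE), adjusted p = 3.5e-08). MS1 thus had a larger fitted change than AMS. The LTMH values of MYB103 rest on few reads, so the size of its fitted change depends on the prior count and is not ranked here. No CT library overlapped an LTMH library in these 4 genes.

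Genes that act earlier, when the anther cell layers are laid down, had smaller fitted changes. EMS1 (Solyc03g026040), the receptor kinase that specifies tapetal cells, was at 22.4 to 27.8 CPM in CT and 10.6 to 13.3 CPM in LTMH (log2 fold change −1.16 ± 0.11 (SE), adjusted p = 2.1e-05). The receptor kinase gene BAM2 (Solyc03g043770) was at 68.1 to 96.6 CPM and 36.8 to 41.4 CPM (log2 fold change −1.19), while the second BAM2 homolog and RPK2 were not called. Both homologs of SPL8, a factor of early sporogenous development, fell. SPL8 Solyc01g090730 had 85.6, 84.9, 83.3 and 69.4 CPM in CT and 19.2, 21.6 and 26.4 CPM in LTMH (log2 fold change −1.93 ± 0.13 (SE), adjusted p = 2.7e-06), and Solyc10g018780, named SlySBP8a, changed by −1.96.

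Of 8 tested genes of sporopollenin and exine formation 0 were higher and 4 lower (50%, beside 13.2% lower over all tested genes), and the median was −3.85 (log2). The list holds 11 genes, and the other 3 (LAP5, MS2 and a second WBC27 homolog) did not pass the filter and had 0 reads in every CT library. CYP703A2 (Solyc10g009390) encodes the cytochrome P450 that hydroxylates lauric acid for sporopollenin. It had 2658, 2078, 3286 and 2867 CPM in CT and 2.85, 3.31 and 3.53 CPM in LTMH (log2 fold change −9.81 ± 0.24 (SE), adjusted p = 1.9e-08). CYP704B1 (Solyc01g010900), the P450 that hydroxylates longer fatty acids for the same polymer, had 1902, 1679, 2388 and 2427 CPM in CT and 2.96, 2.7 and 3.47 CPM in LTMH (log2 fold change −9.52 ± 0.23 (SE), adjusted p = 1.9e-08). In both genes the LTMH libraries lay within 1 CPM of each other, and every CT library lay far above them.

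DRL1 (Solyc04g008780), a reductase of the tetraketide pyrones built into the exine, had 1798, 1656, 2153 and 2483 CPM in CT and 13, 15.4 and 12.2 CPM in LTMH (log2 fold change −7.31 ± 0.21 (SE), adjusted p = 3.8e-08). WBC27 (Solyc07g065780), the ABC transporter that exports sporopollenin precursors from the tapetum, had 156, 268, 212 and 280.5 CPM in CT and 0.226, 0.232 and 0.176 CPM in LTMH (log2 fold change −10.14 ± 0.33 (SE), adjusted p = 5.9e-08). The remaining members showed far smaller differences. ACOS5 (Solyc02g088720), the acyl-CoA synthetase at the start of the pathway in Arabidopsis, had 89.2, 111, 94.8 and 91.7 CPM in CT and 80.6, 76.4 and 77.1 CPM in LTMH, with a log2 fold change of −0.40 that did not reach 1.5-fold. DEX1 Solyc09g013130, a membrane protein of exine patterning, was at 112 to 122 CPM and 103 to 106 CPM (log2 fold change −0.25), also below the fold threshold.

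SHT itself had 8516, 6958, 9721 and 10150 CPM in CT and 75.5, 321 and 214 CPM in LTMH (log2 fold change −5.52 ± 0.50 (SE), adjusted p = 2e-05), with a more than 4-fold span among its LTMH libraries. QRT3 (Solyc02g068400), a polygalacturonase with which the tapetum frees microspores from the tetrad, had 2210, 2292, 2920 and 2893 CPM in CT and 86, 99.5 and 92.9 CPM in LTMH (log2 fold change −4.88 ± 0.16 (SE), adjusted p = 6e-08). The callose synthase gene CALS5 (Solyc11g005980) varied too widely within groups for a call, with 19.2, 57.9, 2.79 and 32.8 CPM in CT and 3.1, 27.3 and 13.4 CPM in LTMH (log2 fold change −1.01, adjusted p = 0.349). The CALS5 homolog that the study found to differ from WT in LTMH is another entry, whose values are not given here. Of 8 tested genes of callose and tetrad separation QRT3 was the only one called (12.5%, close to the 13.2% lower over all tested genes).

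Summed over 11 tapetum markers (TDF1, AMS, MYB103, MS1, CYP703A2, CYP704B1, ACOS5, LAP5, DRL1, MS2 and WBC27), the CT libraries held 7448 to 10120 CPM and the LTMH libraries 236 to 349.8 CPM. Of the 9 markers tested 8 were lower, and the ninth was ACOS5. Markers of later pollen and of the generative cell summed to 153.6 to 260.1 CPM in CT and 219.4 to 235.5 CPM in LTMH, so that these groups overlapped. The part of the fall in tapetal markers in any other difference given here was not tested. Of the 21 genes on the later pollen list 12 were tested, 4 of them higher and 2 lower (33.3% and 16.7%), with a median of 0.37. Over all tested genes 14.5% were higher and 13.2% lower. DUO1 (Solyc01g090530), a MYB factor of the male germline, had 0.589, 0.811, 0.47 and 0.885 CPM in CT and 1.58, 1.89 and 1.38 CPM in LTMH (log2 fold change 1.14 ± 0.27 (SE), adjusted p = 0.00624). GEX1 (Solyc11g006310), a gamete-expressed gene, had 0.403, 0.898, 0.294 and 0.413 CPM and 2.31, 0.928 and 1.59 CPM (log2 fold change 1.58), and its call was lost without LTMH replicate 2 (adjusted p = 0.0517). HAP2 (Solyc08g080440), the gamete fusion protein gene, overlapped between groups, with 17.1, 31.2, 9.69 and 13.2 CPM and 5.3, 11.8 and 8.8 CPM, and its fall (log2 fold change −1.12 ± 0.39 (SE), adjusted p = 0.0384) was lost without any of 4 of the 7 libraries (CT replicates 1 and 2, LTMH replicates 2 and 4).

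**Figure D2:**
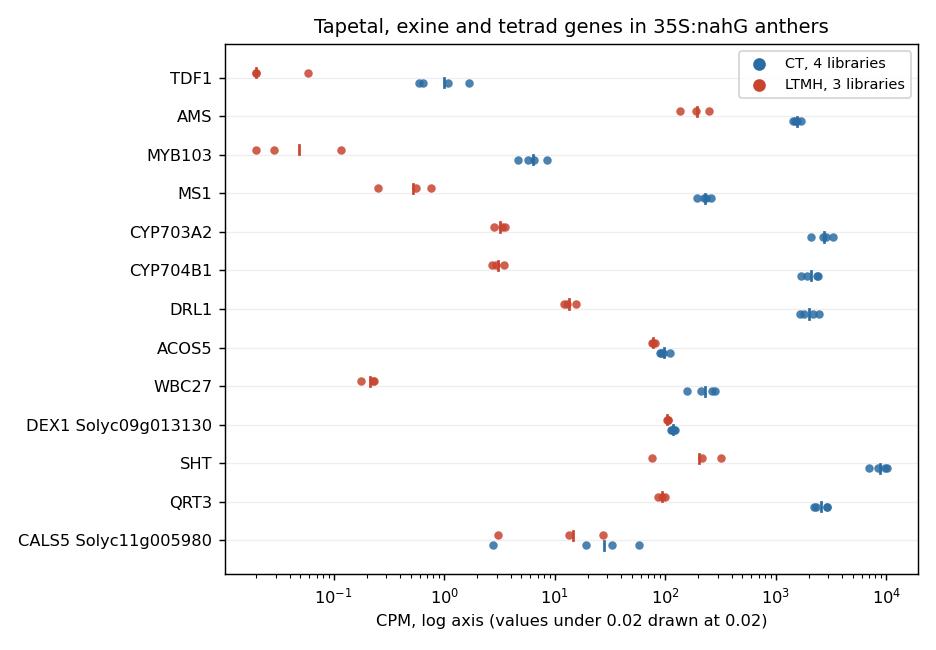
Each row is a tapetal, exine or tetrad gene and each point a library of 35S:nahG, in CPM on a log axis (values under 0.02 drawn at 0.02), with CT in blue, LTMH in red and the group mean as a bar. In TDF1, AMS, MYB103, MS1, CYP703A2, CYP704B1, DRL1, WBC27, SHT and QRT3 every LTMH point lies below every CT point, ACOS5 and DEX1 lie close to their CT points, and CALS5 overlaps.

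The wider list of 254 pollen development genes included these and held 23 higher and 48 lower among 223 tested (10.3% and 21.5%, beside 14.5% and 13.2% of all tested genes), with a median of −0.06. Green tissue genes moved as well. Of 23 light harvesting genes 13 were lower (56.5%, against the 13.2% above) and none higher, with a median of −0.62 and a summed level of 11020 to 11750 CPM in CT and 6773 to 7622 CPM in LTMH. The gene of chlorophyll a-b binding protein 13 (Solyc07g063600), an antenna protein, had 565, 501, 570.5 and 565 CPM in CT and 198, 190.3 and 176 CPM in LTMH (log2 fold change −1.64 ± 0.08 (SE), adjusted p = 4.4e-07). The study chose that list on LTMH libraries of 35S:nahG and WT, so its count is not independent evidence of a direction.

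Heat stress factors and chaperones were called in both directions. Heat stress factors (Hsfs) switch on chaperone genes, the chaperones fold or hold proteins, and the ER forms named BIP do so in the secretory path. Among 160 tested genes of the heat shock protein families 28 were higher and 11 lower, with a median of 0.06. These shares were 17.5% and 6.88%, beside 14.5% and 13.2% over all tested genes. Without the fold threshold 6 of 6 tested HSP90 and 12 of 18 tested HSP70 genes passed at adjusted p alone, where 52.2% of all tested genes did so. These counts take both directions together. Hsp90-7 (−0.52) and Hsp90-6 (−0.21) passed as lower and the other HSP90 genes as higher, and HSP70 genes passed in both directions.

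Of 21 tested Hsf genes 7 were higher and 2 lower (33.3% and 9.52%, beside 14.5% and 13.2% over all tested genes), with a median of 0.39. HsfA6b Solyc06g053950 had 0.31, 0.203, 0.323 and 0.325 CPM in CT and 1.49, 1.25 and 1.24 CPM in LTMH (log2 fold change 2.09 ± 0.27 (SE), adjusted p = 0.00021), and HsfA6b Solyc06g053960 changed by 2.38. Hsfl2 (Solyc02g079180), which is listed among the Hsf genes, had 0.217, 0.29, 0.675 and 0.295 CPM in CT and 3.61, 2.52 and 2.21 CPM in LTMH (log2 fold change 2.80 ± 0.36 (SE), adjusted p = 0.00018). HsfB1 (Solyc02g090820), in tomato a coactivator of HsfA1, went from 13.2, 12.2, 11.7 and 12.1 CPM to 24.3, 25.8 and 31.2 CPM (log2 fold change 1.06 ± 0.10 (SE), adjusted p = 3.4e-05). HsfA2 (Solyc08g062960), the factor that keeps up the response in long heat, had 22.3, 24.5, 21.3 and 15.2 CPM in CT and 29.7, 27.5 and 35.1 CPM in LTMH, which passed the p threshold (adjusted p = 0.0222) but not the fold threshold (log2 fold change 0.48). In the opposite direction HsfB3a (Solyc04g016000) had 40, 31.2, 46.6 and 42.4 CPM in CT and 15.2, 11.5 and 16.8 CPM in LTMH (log2 fold change −1.56 ± 0.17 (SE), adjusted p = 6.4e-05). HsfA9 (Solyc07g040680), known from seeds, fell by 1.10 on the log2 scale.

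BIP3 (Solyc01g099660), the stress-inducible ER Hsp70, had the largest log2 fold change of the 18 tested HSP70 genes, with 6.01, 5.88, 5.64 and 6.46 CPM in CT and 107, 54 and 83.1 CPM in LTMH (log2 fold change 3.67 ± 0.19 (SE), adjusted p = 8e-07). The ER chaperone BIP4 (Solyc03g082920) fell, from 885, 753, 1083 and 728 CPM to 453, 506 and 531 CPM (log2 fold change −0.88 ± 0.15 (SE), adjusted p = 0.00092), so that ER Hsp70 genes moved in both directions. BIP1 (Solyc08g082820) was also below its CT range in every LTMH library, with 618 to 831 and 529 to 586 CPM, but not by 1.5-fold. The cytosolic Hsp70-5 (Solyc04g011440) had 1.86, 3.1, 2.03 and 3.39 CPM in CT and 11.6, 12.3 and 24 CPM in LTMH (log2 fold change 2.54 ± 0.31 (SE), adjusted p = 0.00013). Hsp70-1 (Solyc06g076020) was called higher (log2 fold change 1.22 ± 0.35 (SE), adjusted p = 0.0161), but not without LTMH replicate 4 (0.66, adjusted p = 0.0674).

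LTMH replicate 4 was also the highest library for both HSP90 genes called. Hsp90-3 (Solyc06g036290), an inducible cytosolic form, had 40.5, 69.2, 68.4 and 61.8 CPM in CT and 152, 252 and 651 CPM in LTMH (log2 fold change 2.48 ± 0.44 (SE), adjusted p = 0.00126). Hsp90-4 (Solyc03g007890) overlapped between groups, at 13.5 to 17.9 CPM in CT and 17.6 to 42.1 CPM in LTMH, and its call (log2 fold change 0.77, adjusted p = 0.0321) was lost without LTMH replicate 4 (0.34, adjusted p = 0.121) and without CT replicates 1, 3 or 4. Hsp90-2 (Solyc07g065840) differed by 0.46 with no overlap of groups, below the fold threshold. ClpB1 (Solyc03g115230), the disaggregase also known as Hsp101, lay at that threshold with 63.3, 65.4, 62.6 and 65.6 CPM in CT and 104, 99.2 and 105 CPM in LTMH (log2 fold change 0.59 ± 0.05 (SE), adjusted p = 1.5e-05), and lost its call without CT replicate 1, 2 or 3 or LTMH replicate 4. Its groups did not overlap.

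Small Hsps were called in both directions, 5 higher and 2 lower of 16 tested (31.2% and 12.5%), with a median of 0.18. The shares over all tested genes were 14.5% and 13.2%. Hsp16.1-Po (Solyc04g014480), a peroxisomal form, had 7.87, 6.4, 5.81 and 7.14 CPM in CT and 15.3, 15.6 and 16.4 CPM in LTMH (log2 fold change 1.12 ± 0.11 (SE), adjusted p = 3.3e-05). Hsp21.6-CVI (Solyc07g064020) rose from a range of 0.266 to 0.528 CPM in CT to one of 1.74 to 2.14 CPM in LTMH (log2 fold change 2.26). The cytosolic Hsp17.6A-CI (Solyc06g076570) had 71.6, 75.2, 71.2 and 58.7 CPM in CT and 54, 51.7 and 52.6 CPM in LTMH and was not called (log2 fold change −0.48). Among 94 tested HSP40 genes 14 were higher and 7 lower (14.9% and 7.45%), so that the higher share was close to that over all tested genes. The DnaJ-C gene Solyc02g062160 fell from 423, 223, 486 and 438 CPM to 3.19, 3.34 and 4.18 CPM (log2 fold change −6.87 ± 0.33 (SE), adjusted p = 5.1e-07).

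**Figure D3:**
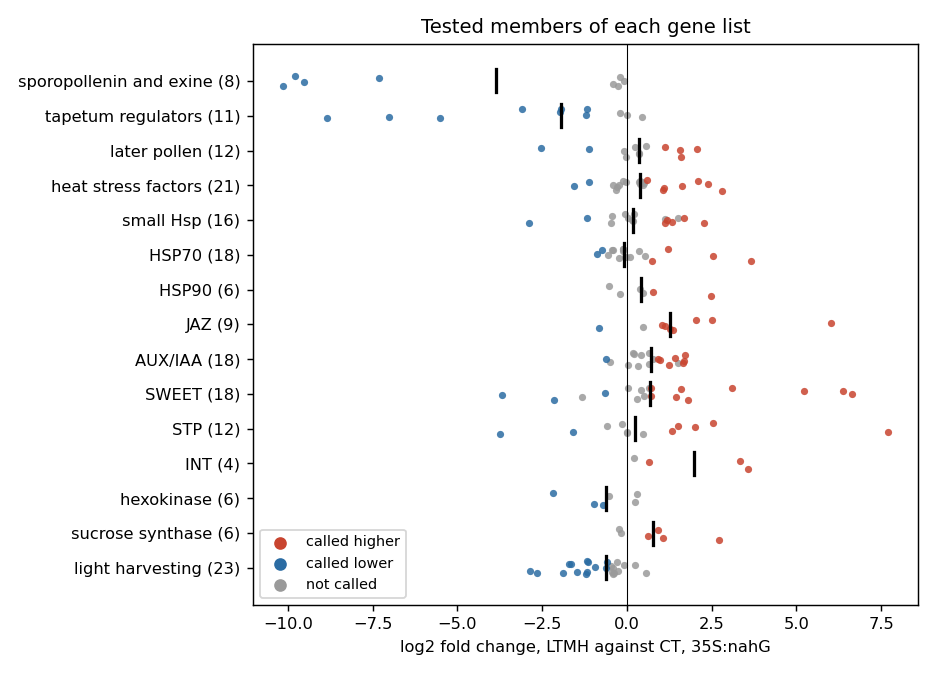
Each row is a gene list with the number of its tested members, each point a member by its log2 fold change between LTMH and CT in 35S:nahG, in red where called higher, blue where called lower and grey where not called, with the list's median as a black bar. The sporopollenin list has its median at −3.85 and the JAZ list at 1.28, while that of the HSP70 family lies at −0.09.

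JAZ proteins repress jasmonate responses until the receptor COI1, bound to jasmonate-isoleucine, marks them for decay, and their genes are themselves induced by jasmonate. Of 9 tested JAZ genes (12 listed) 7 were higher and 1 lower, with a median of 1.28, beside 14.5% higher over all genes. JAZ4 (Solyc12g049400) had 5.36, 4.46, 4.58 and 5.66 CPM in CT and 27.4, 27.7 and 35 CPM in LTMH (log2 fold change 2.50 ± 0.13 (SE), adjusted p = 7.5e-07). JAZ2 (Solyc12g009220) had 1.02, 1.88, 1.09 and 1.83 CPM in CT and 5.69, 6.06 and 7.41 CPM in LTMH (log2 fold change 2.05 ± 0.24 (SE), adjusted p = 9.8e-05). JAZ6 (Solyc01g005440) had 101, 96.4, 103 and 114 CPM in CT and 263, 240.2 and 300 CPM in LTMH (log2 fold change 1.28 ± 0.10 (SE), adjusted p = 6.1e-06). No CT library of these 3 genes reached the lowest LTMH library.

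JAZ1, JAZ3 and JAZ7 rose by 1.11, 1.35 and 1.04 on the log2 scale. JAZ11 (Solyc08g036660) had 1 read in 1 CT library and 0.676, 1.04 and 0.53 CPM in LTMH, for which no fold is given. JAZ5 was not called (0.49), though it was without CT replicate 4 (0.61, adjusted p = 0.0103). JAZ13 (Solyc01g103600) fell from a range of 1.64 to 2.54 CPM in CT to one of 1.1 to 1.3 CPM in LTMH (log2 fold change −0.81 ± 0.23 (SE), adjusted p = 0.014), a call lost without LTMH replicate 3 (adjusted p = 0.0537). COI1 (Solyc05g052620) was at 41.7, 45.1, 40.1 and 38.7 CPM in CT and 55.2, 48.7 and 44.7 CPM in LTMH and was not called (log2 fold change 0.17, adjusted p = 0.0605). LOX3 (Solyc03g122340), a lipoxygenase of the kind that starts jasmonate synthesis, had 14.1, 10.8, 12 and 15.2 CPM in CT and 67.7, 56.8 and 58.8 CPM in LTMH (log2 fold change 2.14 ± 0.12 (SE), adjusted p = 9.2e-07).

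A list of 13 genes for the response to wounding held 9 higher and 0 lower among 11 tested (81.8% higher, beside 14.5% over all tested genes), with a median of 1.96. It was chosen by the study on LTMH libraries of 35S:nahG and WT and shares 6 genes with the JAZ list, so its count is no independent evidence. Without the JAZ genes 4 of 6 tested genes were higher and none was lower.

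AUX/IAA proteins repress auxin response factors until receptors of the TIR1/AFB family, bound to auxin, mark them for decay, and GH3 enzymes conjugate auxin to amino acids. Of 18 tested AUX/IAA genes 7 were higher and 1 lower (38.9% and 5.56%), with a median of 0.71, where the shares over all tested genes were 14.5% and 13.2%. IAA12 (Solyc09g064530) had 27.9, 35.2, 33.4 and 25.6 CPM in CT and 117, 92.3 and 111 CPM in LTMH (log2 fold change 1.72 ± 0.11 (SE), adjusted p = 3e-06). IAA13 (Solyc09g090910) had 6.94, 6.4, 8.22 and 5.9 CPM in CT and 27.3, 19.8 and 23.4 CPM in LTMH (log2 fold change 1.69 ± 0.13 (SE), adjusted p = 7.9e-06). IAA9 (Solyc04g076850), a repressor known in tomato from fruit set and leaf shape, had 591, 517, 653 and 577 CPM in CT and 1299, 1167 and 1238 CPM in LTMH (log2 fold change 0.99 ± 0.09 (SE), adjusted p = 2e-05). Every LTMH library of the 3 genes lay above every CT library.

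IAA19 rose by 1.66, and IAA7 (Solyc06g053830) fell from a range of 6.43 to 8.14 CPM in CT to one of 4.84 to 5.21 CPM in LTMH (log2 fold change −0.63 ± 0.12 (SE), adjusted p = 0.00215), falling short of 1.5-fold without CT replicate 4 (−0.56). The receptor gene TIR1-like(1) (Solyc02g079190) had 74.4, 89, 82.1 and 79.5 CPM in CT and 174, 152 and 139 CPM in LTMH (log2 fold change 0.84 ± 0.08 (SE), adjusted p = 2e-05). YUCCA5 (Solyc09g064160), annotated as an indole-3-pyruvate monooxygenase of auxin synthesis, rose from 0.62, 0.637, 0.558 and 0.649 CPM to 5.67, 5.28 and 4.5 CPM (log2 fold change 2.97 ± 0.16 (SE), adjusted p = 8.4e-07). Genes of auxin conjugation rose further. The GH3.6-like synthetase (Solyc07g053030) had 10.5, 13.6, 11 and 10.1 CPM in CT and 136, 115 and 93.2 CPM in LTMH (log2 fold change 3.25 ± 0.13 (SE), adjusted p = 1.6e-07), and a pair of GH3.1 genes changed by 4.13 (Solyc01g107390) and 4.24 (Solyc02g064830). Auxin response factor 5 (Solyc04g081235), in contrast, had 901, 640.1, 869.5 and 873 CPM in CT and 16.7, 29.4 and 22.6 CPM in LTMH (log2 fold change −5.25 ± 0.24 (SE), adjusted p = 4.1e-07). Over the 175 tested auxin response genes 46 were higher and 20 lower (26.3% and 11.4%, against the same 14.5% and 13.2%), with a median of 0.16.

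Genes of abscisic acid (ABA) response and metabolism were called in both directions. Among 268 tested ABA response genes 49 were higher and 32 lower (18.3% and 11.9%, near the 14.5% and 13.2% over all genes), with a median of 0.03. The gene of an ABA 8'-hydroxylase 1-like enzyme (Solyc08g005610), of the family that breaks ABA down, had 76, 92.8, 61.3 and 67.8 CPM in CT and 1.95, 3.48 and 3.47 CPM in LTMH (log2 fold change −4.73 ± 0.22 (SE), adjusted p = 4.3e-07). NCED5 (Solyc08g016720), annotated as a dioxygenase of the step that commits carotenoids to ABA, had 2.45, 2.92, 2.91 and 2.74 CPM in CT and 8.88, 6.15 and 7.09 CPM in LTMH (log2 fold change 1.33 ± 0.14 (SE), adjusted p = 6.3e-05). These groups did not overlap. Both genes annotated as ABA DEFICIENT 4, a protein of the preceding carotenoid step, were higher as well, Solyc03g034240 by 2.02 and Solyc02g063170 by 1.61. The dehydrin Solyc04g082200, a protective protein of drying tissues, had 9.02, 8.54, 9.34 and 9.71 CPM in CT and 113, 51.6 and 50.2 CPM in LTMH (log2 fold change 2.86 ± 0.25 (SE), adjusted p = 1.7e-05). The ABA receptor gene annotated as PYL4-like (Solyc03g095780) rose from a range of 0.767 to 4.14 CPM in CT to one of 11.6 to 19.4 CPM in LTMH (log2 fold change 2.74).

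Cytokinin metabolism held 5 higher and 5 lower genes among 22 tested (22.7% each, beside 14.5% and 13.2% over all genes), with a median of −0.06. LOG enzymes release active cytokinins, and their genes went in both directions. The LOG7-like gene (Solyc10g082020) fell from 53.9, 33.7, 64.9 and 49.9 CPM to 1.01, 0.493 and 0.677 CPM (log2 fold change −6.20 ± 0.31 (SE), adjusted p = 6.1e-07). LOG1 (Solyc11g069570) rose from a range of 0.118 to 0.323 CPM in CT to one of 2.18 to 3.75 CPM in LTMH (log2 fold change 3.52) and LOG3 (Solyc10g084150) from a range of 9.73 to 11.6 CPM in CT to one of 42.5 to 52.6 CPM in LTMH (log2 fold change 2.02). An adenylate isopentenyltransferase-like gene (Solyc04g007240), of the family that starts cytokinin synthesis, fell from a range of 4.49 to 8.85 CPM in CT to one of 0.169 to 0.348 CPM in LTMH (log2 fold change −4.94 ± 0.37 (SE), adjusted p = 6.2e-06).

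Sugar carriers included some of the largest rises. SWEETs let sugars pass out of cells along their gradient, STPs take up hexoses with protons, INTs carry inositol and SUTs sucrose. Of 29 SWEET genes listed 21 were in the table and 18 were tested, 9 of them higher and 3 lower (50% and 16.7%, beside 14.5% and 13.2% over all tested genes), with a median of 0.67. SlNEC1 (Solyc09g074530), a SWEET known from nectaries, had 0.62, 0.521, 0.705 and 1 CPM in CT and 31.1, 29.5 and 24.9 CPM in LTMH (log2 fold change 5.22 ± 0.17 (SE), adjusted p = 5.9e-08). SlSWEET11a (Solyc03g097870) had 0.124, 0.0869, 0.147 and 0.206 CPM in CT and 27.9, 7.25 and 10.9 CPM in LTMH (log2 fold change 6.63 ± 0.56 (SE), adjusted p = 1.3e-05). The CT values of SlSWEET11a rest on few reads, so the size of its fitted change depends on the prior count. Its paralog SlSWEET11c (Solyc06g072620) went the other way, with 38.2, 29.3, 35.9 and 27.8 CPM in CT and 2.85, 3.08 and 2.21 CPM in LTMH (log2 fold change −3.68 ± 0.16 (SE), adjusted p = 2.8e-07). SlSWEET7a (Solyc08g082770) rose too, from 27.4 to 39.3 CPM in CT to 95.4 to 109 CPM in LTMH (log2 fold change 1.6).

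Hexose carriers were likewise split, with 5 higher and 2 lower among 12 tested STP genes (41.7% and 16.7%, against 14.5% and 13.2% of all). SlSTP6 (Solyc08g080300) had 0, 0.029, 0.0294 and 0.059 CPM in CT and 8.65, 7.8 and 5.77 CPM in LTMH (adjusted p = 3.4e-07). Its CT values rest on too few reads for a fold. SlSTP13 (Solyc03g005150) fell from 19.2, 24, 22.6 and 21.9 CPM to 3.1, 1.16 and 0.971 CPM (log2 fold change −3.74 ± 0.30 (SE), adjusted p = 1e-05), and SlSTP1 (Solyc02g079220) rose from a range of 1.15 to 1.59 CPM in CT to one of 6.41 to 13.8 CPM in LTMH. Of 4 inositol carriers 3 were higher, SlINT2 (Solyc08g048290) from 1.74, 1.65, 2.38 and 3.42 CPM to 25.3, 21.8 and 27.4 CPM (log2 fold change 3.34 ± 0.22 (SE), adjusted p = 2.9e-06) and SlINT3 (Solyc12g099070) by 3.58. The sucrose carrier SlSUT1 (Solyc11g017010) had 15.6, 17.7, 19.2 and 20 CPM in CT and 75.2, 30.2 and 25.6 CPM in LTMH (log2 fold change 1.16 ± 0.31 (SE), adjusted p = 0.0115). Its rise was below 1.5-fold without LTMH replicate 2 (0.56), the library that was highest. The polyol carrier SlPMT4 (Solyc01g109460) fell from 1616, 915, 1570 and 1655 CPM to 311, 317 and 230 CPM (log2 fold change −2.42 ± 0.22 (SE), adjusted p = 2.2e-05).

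The cell wall invertase Lin5b (Solyc10g085650) had 1.39, 2, 0.763 and 1.12 CPM in CT and 30.6, 15.1 and 14.8 CPM in LTMH (log2 fold change 3.83 ± 0.32 (SE), adjusted p = 1.3e-05). Of 5 tested invertase inhibitor genes 4 were higher and 1 was lower. INVINH1 (Solyc12g099200) rose from 6.97, 10.2, 8.84 and 9.18 CPM to 31.5, 19.4 and 15.5 CPM (log2 fold change 1.24 ± 0.21 (SE), adjusted p = 0.00101) and VIF, an inhibitor of vacuolar invertase, by 3.65. Summed over the inhibitor list the groups overlapped, at 55.3 to 59.2 CPM in CT and 80.4, 61.9 and 52.3 CPM in LTMH. Over all tested genes 14.5% were higher and 13.2% lower. Sucrose synthase genes were higher in 4 of 6 cases, with SS1 (Solyc12g009300) at 198, 228, 197 and 183 CPM in CT and 413, 416 and 372 CPM in LTMH (log2 fold change 0.90 ± 0.07 (SE), adjusted p = 1.1e-05). Hexokinases, which phosphorylate the hexoses set free, were lower in 3 of 6 cases and higher in none. HK1 (Solyc03g121070) had 210.2, 189.8, 258 and 223 CPM in CT and 126, 114 and 121 CPM in LTMH (log2 fold change −0.96 ± 0.11 (SE), adjusted p = 7.5e-05). HK2 fell by 0.70 and HK5 (Solyc02g091830), from a range of 70.4 to 92 CPM in CT to one of 16.1 to 23.3 CPM in LTMH, fell by 2.19, and none of the LTMH libraries reached the CT range in these 3 genes.

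**Figure D4:**
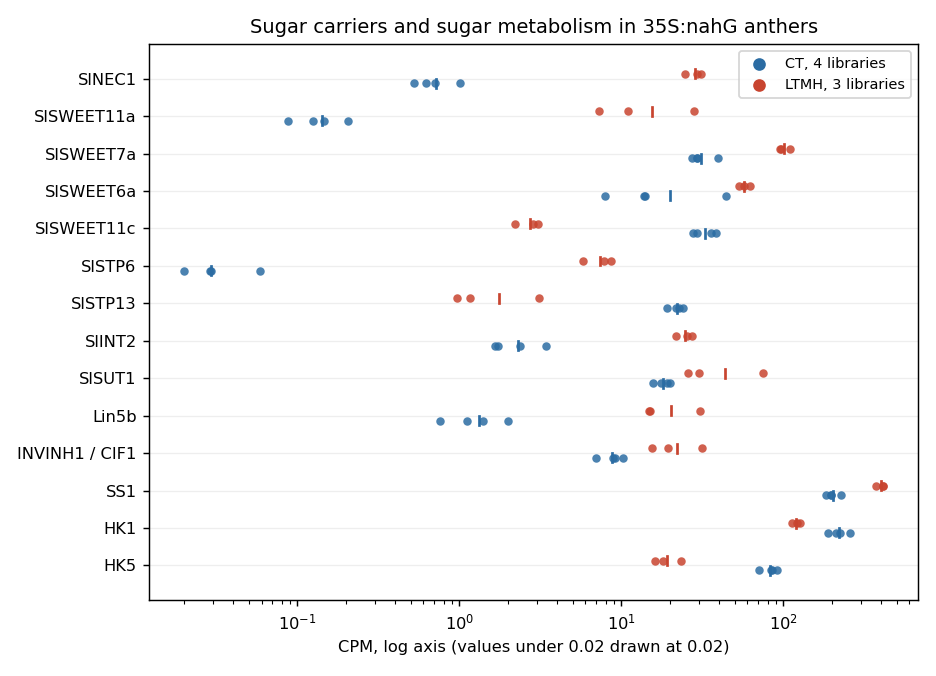
Each row is a sugar carrier or sugar enzyme gene and each point a library of 35S:nahG, in CPM on a log axis (values under 0.02 drawn at 0.02), with CT in blue, LTMH in red and the group mean as a bar. SlNEC1, SlSWEET11a, SlSTP6, SlINT2 and Lin5b lie far to the right in LTMH, SlSWEET11c, SlSTP13 and HK5 to the left, and CT replicate 2 is the CT point of SlSWEET6a nearest to LTMH, at 44.4 CPM.

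CT replicate 2 stood apart over many genes, at −49.6 on the second component against 3.81 to 29.1 for the other CT libraries. For the tapetum markers it held the lowest CT sum, 7448 CPM against 8361 to 10120 CPM. Its weight is shown here for 3 genes. The stress kinase gene MPK3 (Solyc06g005170) had 12.7, 41.8, 9.07 and 11.6 CPM in CT and 68.5, 85.9 and 78.1 CPM in LTMH (log2 fold change 1.97 ± 0.45 (SE), adjusted p = 0.00509), and the change was 2.70 without CT replicate 2. SlSWEET6a (Solyc02g086920) had 13.8, 44.4, 7.96 and 14 CPM in CT and 53.1, 61.9 and 57.3 CPM in LTMH (log2 fold change 1.44 ± 0.46 (SE), adjusted p = 0.0255). Without CT replicate 2 its change was 2.17 (adjusted p = 1.8e-05), and the call was lost without CT replicate 1 or 4 or LTMH replicate 3 or 4 (adjusted p of 0.0613 to 0.0679). 4CL3 (Solyc03g097030), annotated as a 4-coumarate:CoA ligase of phenylpropanoid synthesis, had 37.6, 91.4, 31.9 and 47.1 CPM and 191, 244 and 251 CPM (log2 fold change 2.06 ± 0.31 (SE), adjusted p = 0.00051). In all 3 genes CT replicate 2 was the highest CT library and lay below the lowest LTMH library.

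Among the largest rises outside these lists was a chalcone flavanone isomerase gene (Solyc05g010310), of flavonoid synthesis, with 0, 0.174, 0.294 and 0 CPM in CT and 39.8, 49.7 and 24.4 CPM in LTMH (log2 fold change 8.19 ± 0.47 (SE), adjusted p = 1.3e-06). A cysteine protease gene annotated as SAG39-like (Solyc02g076910), of a kind that marks senescence, had 0, 0.29, 0.147 and 0.059 CPM and 22.2, 6.09 and 10.7 CPM (log2 fold change 6.55 ± 0.62 (SE), adjusted p = 2.7e-05). The gene annotated as MYB108-like (Solyc05g053330), whose Arabidopsis namesake acts in jasmonate-dependent anther maturation, had 0.155, 0.0869, 0.147 and 0.266 CPM and 10.9, 7.95 and 11.1 CPM (log2 fold change 5.82 ± 0.26 (SE), adjusted p = 3.6e-07). In CT these genes hold few reads, so the size of their fitted changes depends on the prior count. Groups without overlap were a condition for entry among the largest folds, so the lack of overlap in these genes is no separate result.

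At these depths 46 genes with a CT mean of 1 CPM or more fell to no more than 3 reads in every LTMH library, and 55 genes had the reverse pattern. In 24 and 34 of these, the higher group had at least 1 CPM in each of its libraries.

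The LTMH response of 35S:nahG was then set beside those of the other lines, each fitted on its own libraries with no library in common. Of 19668 genes tested in all 4 lines 2824 were higher in 35S:nahG, and 1306 of these (46.2%) were also higher in WT, which is 75% of the genes higher in WT. Never ripe shared 602 (21.3%, or 66.5% of its own) and 35S:asCCD7 shared 607 (21.5%, or 64.9% of its own), and 1266 (44.8%) were called higher in none of the 3. WT called 8.85% of these genes higher, Never ripe 4.6% and 35S:asCCD7 4.76%. Over all genes tested in a line the shares called higher and lower were 9.05% and 8.83% in WT, 4.67% and 4.32% in Never ripe and 4.84% and 3.08% in 35S:asCCD7. Of the 2330 lower genes WT shared 1033 (44.3%, or 60.8% of its own), Never ripe 398 (17.1%, or 48.8%) and 35S:asCCD7 272 (11.7%, or 45%), and 1176 (50.5%) were called lower in none. A gene not called in another line is not thereby shown to respond otherwise there, and the fitted variation was larger in those lines (biological coefficient of variation 0.133 in 35S:nahG, 0.153 in WT, 0.174 in Never ripe and 0.229 in 35S:asCCD7).

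The difference in response was therefore tested. Against WT the 35S:nahG response was above in 1195 and below in 990 of the tested genes (5.66% and 4.69%). Against the mean response of the other 3 lines, in a fit of all 29 libraries, it was above in 1653 and below in 1333 of 21637 genes (7.64% and 6.16%). Both tests use the same 35S:nahG libraries.

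Of 8 tested sporopollenin and exine genes 3 lay below the mean of the other 3 lines and 0 above, where 6.16% of all tested genes lay below and 7.64% above. CYP703A2 changed by −4.0 in WT, −6.75 in Never ripe and −0.11 in 35S:asCCD7, and the 35S:nahG response was below the mean of the other 3 by a log2 difference of −6.19 ± 1.85 (SE), adjusted p = 0.0161. CYP704B1 changed by −3.08 in WT, −6.05 in Never ripe and −0.67 in 35S:asCCD7 (difference −6.26 ± 1.86 (SE), adjusted p = 0.0157), and the tapetal regulator MS1 by −2.47 in WT, −5.39 in Never ripe and −1.86 in 35S:asCCD7 (difference −5.63 ± 1.63 (SE), adjusted p = 0.0133). The lines did not start from one level. CYP703A2 had a mean of 2722 CPM in CT in 35S:nahG, against 477.8 in WT, 279.6 in Never ripe and 29 in 35S:asCCD7, and in LTMH the means were 3.23, 31.8, 2.92 and 29.8 CPM in that order. WBC27 differed from the WT response (−8.22 ± 1.58 (SE), adjusted p = 0.00361) while the test against the 3 lines was not passed (−6.36 ± 2.92 (SE), adjusted p = 0.114). AMS and SHT passed neither test of the difference. Whether the unequal CT levels have a part in the unequal responses was not tested.

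For the chaperone genes with the largest rises no difference between lines was called. BIP3 changed by 4.31 in WT, 3.15 in Never ripe and 3.74 in 35S:asCCD7, with a difference from their mean of −0.07 ± 0.33 (SE), adjusted p = 0.909. Hsp70-5 and Hsp90-3 had differences of −0.03 and 0.32, which also missed the threshold. Differences were called for ER chaperones that were lower in LTMH. BIP4 changed by 0.56 in WT, −0.14 in Never ripe and 0.31 in 35S:asCCD7, and its difference was −1.13 ± 0.17 (SE), adjusted p = 4.4e-05. Hsp90-7 (Solyc04g081570), the ER-resident Hsp90, was at 730.3 to 928 CPM in CT and 591 to 603 CPM in LTMH in 35S:nahG and not called there (−0.52), while its response lay below the others (−0.81 ± 0.18 (SE), adjusted p = 0.00232).

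Of the JAZ genes 8 of 9 tested were called higher in WT, 0 of 9 in Never ripe and 2 of 8 in 35S:asCCD7, with medians of 1.42, −0.17 and 0.65 beside 1.28 in 35S:nahG. Over all tested genes 9.05%, 4.67% and 4.84% were called higher in those lines. None of the 9 JAZ genes was above the WT response and 1, JAZ13, was below it, while 4 were above the mean of the other 3 lines and 1 below. Of all tested genes 5.66% lay above and 4.69% below the WT response, and 7.64% above and 6.16% below that mean. Threonine dehydratase changed by 2.44 in WT, −0.44 in Never ripe and 2.0 in 35S:asCCD7 (difference 1.48 ± 0.18 (SE), adjusted p = 4.7e-06). For the AUX/IAA genes the medians were 0.71 in 35S:nahG, 0.02 in WT, 0.11 in Never ripe and 0.17 in 35S:asCCD7, and 10 of 18 lay above the WT response and 7 of 19 above the mean of the 3 lines, with none below in either test. The shares above over all tested genes were the same 5.66% and 7.64%. IAA12 changed by 0.22 in WT, 0.23 in Never ripe and 0.14 in 35S:asCCD7 (difference 1.52 ± 0.28 (SE), adjusted p = 0.00031). The GH3.6-like gene changed by 1.74 in WT, 1.09 in Never ripe and 0.12 in 35S:asCCD7 (difference 2.26 ± 0.41 (SE), adjusted p = 0.00027).

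Among sugar genes SlNEC1 changed by 2.53 in WT, 0.35 in Never ripe and −0.08 in 35S:asCCD7 (difference 4.28 ± 0.58 (SE), adjusted p = 1.1e-05), Lin5b by −0.18 in WT, 0.87 in Never ripe and 0.05 in 35S:asCCD7 (difference 3.59 ± 0.84 (SE), adjusted p = 0.00308) and HK1 by 0.21 in WT, 0.02 in Never ripe and 0.22 in 35S:asCCD7 (difference −1.12 ± 0.12 (SE), adjusted p = 6.9e-07). Hexokinase HK5 fell in every line (−2.56 in WT, −1.49 in Never ripe and −1.64 in 35S:asCCD7), with no difference called (−0.30). The fitted changes of MPK3 (−0.66 in WT, −0.79 in Never ripe and −1.09 in 35S:asCCD7) had the opposite sign in all 3 other lines, though MPK3 was not called lower in Never ripe or 35S:asCCD7. The difference was 2.81 ± 0.52 (SE), adjusted p = 0.00039. The gene annotated as VACUOLAR PROTEIN SORTING-ASSOCIATED 62 (Solyc01g081620) is among the 5 with the highest differences and had 1.15, 0.753, 1.7 and 2.3 CPM in CT and 119.9, 114 and 135 CPM in LTMH in 35S:nahG (log2 fold change 6.29 ± 0.24 (SE), adjusted p = 1.5e-07). It changed by 1.20 in WT, 0.41 in Never ripe and −0.28 in 35S:asCCD7 (difference 5.84 ± 0.62 (SE), adjusted p = 6.9e-07).

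**Figure D5:**
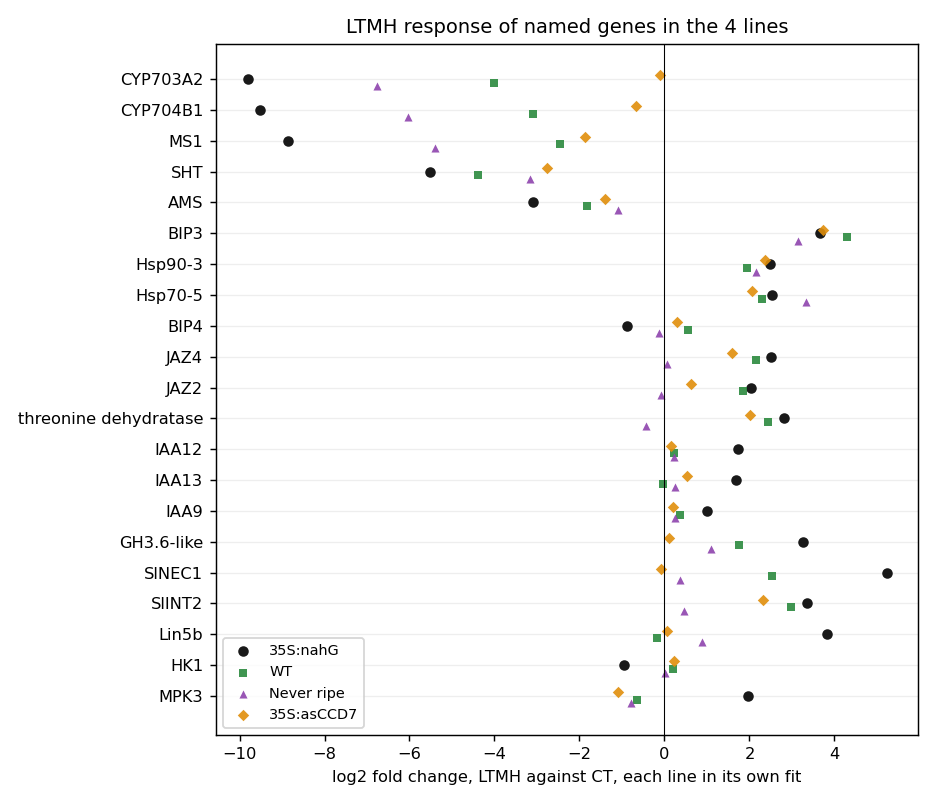
Each row is a gene and each symbol the log2 fold change between LTMH and CT in one line, fitted on that line's libraries alone (black circle 35S:nahG, green square WT, purple triangle Never ripe, orange diamond 35S:asCCD7). The circles lie furthest left in CYP703A2, CYP704B1 and MS1, near the other symbols in BIP3 and Hsp90-3, and alone on the right in IAA12, IAA13, Lin5b and MPK3.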

How the data were processed

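Anther mRNA of 4 tomato lines was sequenced in CT and LTMH in 29 libraries of 8 groups, and samples were grouped by the submitters' labels. The authors prepared unstranded poly-A libraries, aligned reads with HISAT2 2.0.5 to SL3.0 (ITAG3.2) and counted them per gene with featureCounts 1.5.0-p3 at default settings, so that overlapping or antisense genes and close paralogs may share or lose reads. The deposited values are whole-number counts, used as they are. The deposited FPKM values, made by the authors from counts and gene length, were used only for levels between genes. Relative to CT replicate 1 an FPKM is worth 0.915 to 1.02 per CPM in the other libraries. The methods state 4 replicates, and 3 LTMH libraries were analysed here.

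Counts were fitted in edgeR 4.0.16 (R 4.3.3) by quasi-likelihood after TMM normalization and filterByExpr (minimum count 10, over the 14 WT and 35S:nahG libraries together, or over 29 for the test against 3 lines). All tests were two-sided, p-values were adjusted by Benjamini-Hochberg for every gene tested, and DEGs needed an adjusted p under 0.05 and a fold of at least 1.5. The SE is the log2 fold change divided by the square root of F. Scripts were tested on simulated counts. Gene lists came from the study's supplements, and members and lists were chosen with earlier results of these data known. The CPM use total counted reads. No pair of libraries held identical values. Per list no test was made. Named genes were those that define a list, up to 6 called per list and direction, and the 5 largest gains and losses in CPM. The 10 highest and 10 lowest folds were added, only from DEGs whose CT and LTMH libraries did not overlap. The 5 largest differences from the other lines in each direction were added too. Genes taken by fold or by difference needed a mean of at least 5 CPM over the 35S:nahG libraries. Other members are given as counts. With genes of fewer than 3 reads in a group set at the bound of 3 reads per library, the list medians printed equalled the fitted ones at 2 decimals, save for auxin response (0.17). Alternatives were DESeq2 1.42.0, RLE, other filters, no fold threshold, all 8 groups in one fit, a replicate block and leaving out each library. The promoter search planned was not run, and no sequences were used here.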

Additional observations from a re-analysis of the deposited data

Results flagged for a closer look

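In 10 of 112 sets of 4 CT values looked at, 1 library stood far from the other 3, which chance gives in about 1 in 20 sets. In CT replicate 2 the level was the highest for MPK3 (41.8 CPM, next 12.7), SlSWEET6a (44.4, next 14) and SlSWEET7a (39.3, next 29.2). The same library was the lowest for auxin response factor 5 (640 CPM, next 870), HsfA6b Solyc06g053950 (0.203, next 0.31), SlPMT4 (915, next 1570) and chlorophyll a-b binding protein 13 (501, next 565). CT replicate 4 was the lowest for SPL8 Solyc01g090730 (69.4 CPM, next 83.3) and the highest for JAZ11 (0.0295, with 0 in the others), and CT replicate 3 was the highest for Hsfl2 (0.675, next 0.295).

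The LTMH response of 35S:nahG differed from that of WT in 2185 genes and from the mean response of the other 3 lines in 2986 genes, by the tests of the difference given in the report. The values below are log2 differences from that mean, each past the thresholds of the test.

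Tapetal and exine genes with a response below the mean were CYP703A2 (−6.19), CYP704B1 (−6.26), DRL1 (−4.70), MS1 (−5.63), SlySBP8a (−1.14), SPL8 Solyc01g090730 (−0.98), EMS1 (−0.83) and QRT3 (−3.12). The CT levels were unequal. CYP703A2 had CT means of 2722 CPM in the low-SA line, 477.8 in WT, 279.6 in Never ripe and 29 in the strigolactone-deficient line. Its LTMH means were 3.23, 31.8, 2.92 and 29.8 CPM in that order, so Never ripe ended near the low-SA line. Whether unequal CT levels have a part in these differences was not tested.

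Among Hsf and chaperone genes Hsfl2 (1.85), HsfB2b (1.46), the Hsf A-4a-like gene (1.05) and Hsp21.6-CVI (1.20) responded above the mean. HsfB3a (−1.37), HsfA9 (−1.18), BIP4 (−1.13), BIP1 (−0.61), Hsp90-7 (−0.81) and DnaJ-C Solyc02g062160 (−3.69) responded below it.

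Of jasmonate genes JAZ2 (1.25), JAZ4 (1.22), JAZ6 (0.90) and JAZ7 (0.82) lay above and JAZ13 (−0.80) below. The JAZ medians were 1.28 in the low-SA line, 1.42 in WT, −0.17 in Never ripe and 0.65 in the strigolactone-deficient line. Against the WT response alone, 0 of 9 tested JAZ genes lay above and 1, JAZ13, below. A JAZ response stronger than that of WT was thus not seen. Auxin genes above the mean were IAA12 (1.52), IAA13 (1.43), IAA9 (0.71), IAA19 (1.09), YUCCA5 (1.89), the GH3.6-like gene (2.26) and GH3.1 Solyc02g064830 (3.47), and auxin response factor 5 lay below it (−3.01).

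Of ABA genes NCED5 (0.93), ABA DEFICIENT 4 Solyc03g034240 (1.6) and Solyc02g063170 (1.30), the PYL4-like receptor (3.05) and the dehydrin (1.11) lay above, and the ABA 8'-hydroxylase 1-like gene below (−2.34). Cytokinin genes LOG1 (4.09) and LOG3 (0.96) lay above, and LOG7-like (−3.43) and the adenylate isopentenyltransferase-like gene (−3.25) below. The strigolactone gene CCD7 was below as well (−1.81), where one of the other lines carries an antisense construct against it.

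Sugar genes above the mean were SlNEC1 (4.28), SlSWEET11a (3.04), SlSWEET6a (1.99), SlSWEET7a (1.03), SlSTP6 (6.87), SlSTP1 (2.15), SlINT2 (1.42), SlSUT1 (1.12), Lin5b (3.59) and INVINH1 (1.10). The value of SlSTP6 depends on the prior count, since its CT libraries hold too few reads. SlSTP13 (−3.03), HK1 (−1.12), HK2 (−0.64) and SlPMT4 (−1.87) lay below.

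The aspartic protease gene lay below the mean (−3.76). The other differences, all above it, were those of MPK3 (2.81), 4CL3 (2.57), MYB108-like (5.26), VACUOLAR PROTEIN SORTING-ASSOCIATED 62 (5.84), threonine dehydratase (1.48), Solyc02g078370 (2.41) and Solyc07g007250 (2.35).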

How the results depend on the processing

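Leaving out the fold threshold gave 11014 DEGs in place of 5837 for the LTMH response, 3857 in place of 2185 for the difference from WT and 5438 in place of 2986 for the difference from the other 3 lines. RLE scaling, no filter and DESeq2 moved none of the 3 counts by over 1.5 times, nor did the 7-library filter and the fit of all 8 groups, run for the LTMH response only. Leaving out 1 library at a time gave 5401 to 5877, 1766 to 2466 and 2458 to 2992, where only 35S:nahG libraries were left out for the first and the last. Of the genes called with all libraries, 88.7% to 94.2%, 76.7% to 93.9% and 77.3% to 90.9% were still called. Without LTMH replicate 2, 1 DEG of the LTMH response and 4 of the difference from the other 3 lines took the opposite sign. No named gene reversed, and 250 of 291 called named genes kept their call in every alternative.

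Same-numbered CT and LTMH libraries did not deviate together (correlations −0.0407, −0.0656 and 0.046), so the numbers are not taken as pairs. With a replicate block the counts were 5454 and, against WT, 1537. Of the 5837 DEGs of the LTMH response 5283 (90.5%) were still called with it, and of the 2185 genes that differed from WT 1406 (64.3%). With 3 LTMH libraries, genes near 0 reads are the least certain.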

Other observations

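Other groups of genes in 35S:nahG are given beside the 14.5% of all tested genes that were higher and the 13.2% that were lower. Of 15 tricarboxylic acid cycle genes 3 were higher and 0 lower, with a median of 0.37 and a summed level of 2172 to 2297 CPM in CT and 3370 to 3661 CPM in LTMH. Of 12 genes of DNA replication initiation 0 were higher and 1 lower, with a median of −0.42. Nucleosome assembly held 4 lower and 0 higher genes among 19, and chlorophyll synthesis 4 lower and 0 higher among 10, with a median of −0.46. The study chose these 4 lists on LTMH libraries of 35S:nahG and WT, so that their counts are not independent evidence of a direction.

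Amylases, which break down starch, held 3 higher and 0 lower genes among 6 tested, with a median of 0.37. Brassinosteroid metabolism held 8 higher and 8 lower genes among 27 tested, with a median of 0.03. CCD7, the carotenoid dioxygenase of strigolactone synthesis, had 3.94, 3.21, 2.64 and 3.22 CPM in CT and 0.423, 0.348 and 0.588 CPM in LTMH (log2 fold change −2.92 ± 0.25 (SE), adjusted p = 1.3e-05).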
